A study of Mus musculus with 12 samples.

Results

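A set of 10 mouse genes known as targets of the transcriptional co-activator YAP were followed through the conversion of hepatocytes into biliary-like cells. The 10 genes are Ccn1, Ccn2, Ankrd1, Axl, Crim1, F3, Amotl2, Ajuba, Nuak2 and Ptpn14. They were taken by gene symbol from a gene count table of 53599 genes, and each matched 1 row. All 10 were among the 16210 genes with enough counts to be tested.

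The data are bulk RNA sequencing counts of sorted mouse liver cells, 3 libraries in each of 4 groups. All mice, with genotype labelled WT, received AAV8-TBG-Cre, a viral vector whose hepatocyte promoter TBG drives Cre so that hepatocytes and their descendants carry EGFP. From 1 week later all were fed 0.1% DDC, a porphyrinogenic compound that injures bile ducts, for 8 weeks, so no group comes from an uninjured liver. The early cells were EGFP+ Cd24- Epcam-, the intermediate cells EGFP+ Cd24+ Epcam-, the full cells EGFP+ Cd24+ Epcam+, and the BEC (biliary epithelial cells) EGFP- Epcam+. The stages are therefore sort gates at a single time, and BEC are defined by the absence of EGFP. The difference from full to BEC, counted below as the third step, is thus between EGFP+ and EGFP- cells. It is not a further stage of the conversion. The strain, age and sex of the mice, the reporter allele and the share of hepatocytes it marked are not given in the sources used here, nor is whether each library is 1 animal or a pool.

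YAP and its paralogue TAZ (gene Wwtr1) are co-activators that bind no DNA themselves. In the nucleus they join the TEAD transcription factors. The Hippo kinases LATS1 and LATS2 phosphorylate both and hold them in the cytoplasm. In the liver YAP is known to be low in hepatocytes and high in bile duct cells, and forced YAP activity in hepatocytes is known to give ductal features. The genes described here fall into secreted matrix proteins (Ccn1, Ccn2), cell surface proteins (Axl, F3, Crim1), a muscle and nuclear ankyrin repeat protein (Ankrd1) and proteins that act back on the Hippo pathway (Amotl2, Ajuba, Nuak2, Ptpn14).

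The sorted cells carried the markers of their gates. Cd24a, which encodes the sorted CD24, averaged 3.20 ± 2.16 CPM (counts per 1000000 library counts; SD, n = 3) in early and 444 ± 75.8 CPM in intermediate cells. Epcam averaged 18.8 ± 7.24 CPM in intermediate, 254 ± 41.1 CPM in full and 866 ± 35.6 CPM in BEC. The summed level of 9 hepatocyte markers ran from 101674 to 104421 CPM in early cells and from 2114 to 2746 CPM in BEC, and that of 9 biliary markers from 979 to 1970 CPM in early cells and from 14520 to 17794 CPM in BEC. Library totals were 15112893 to 19731887 counts. The 50 most abundant genes took 31.2% to 35.9% of the counts in early cells and 14.9% to 16.7% in BEC, so the CPM values used here are scaled for composition (TMM). Mitochondrial transcripts took 5.45% to 11.4% of the counts in early cells, with replicate 2 highest, 3.99% to 4.75% in intermediate, 2.20% to 2.48% in full and 2.58% to 3.43% in BEC; their part in the differences from early cells was not tested. A count of 3, used as the floor, is 0.128 to 0.273 CPM depending on the library.

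The stretch just upstream of each gene's start was searched for the letters that TEAD factors are known to read. A promoter table from RefSeq (build GRCm38.p6) held 8 of the 10 genes; Ccn2 and Nuak2 had no entry. In the 250 bases before the start, GGAATG (the core of the TEAD motif, searched on both strands, so CATTCC on the opposite one) occurred in 7 of the 8, Ccn1, Ankrd1, Axl, Crim1, Amotl2, Ajuba and Ptpn14. The same letters occurred in 12.6% of 32851 promoter windows of that length. TGANTCA, the AP-1 motif, occurred in 1 of the 8, F3, and in 6.75% of all windows; no match of one motif overlapped the other. The 3 full windows below are those of Ccn1 and Ankrd1, the genes with the highest level per kilobase and with the largest difference between early and BEC among the 10, and of F3, which held no TEAD letters in this window. Each is written 5′ to 3′ on the gene's strand with the matches in capitals (Ccn1 at chr3:145649986-145650235, minus strand; Ankrd1 at chr19:36119845-36120094, minus strand; F3 at chr3:121723287-121723536, plus strand).
Ccn1: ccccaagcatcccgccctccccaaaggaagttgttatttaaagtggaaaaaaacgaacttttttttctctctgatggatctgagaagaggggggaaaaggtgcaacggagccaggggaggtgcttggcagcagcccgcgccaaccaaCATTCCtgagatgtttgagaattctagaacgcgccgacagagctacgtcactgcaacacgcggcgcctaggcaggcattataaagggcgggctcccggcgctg
Ankrd1: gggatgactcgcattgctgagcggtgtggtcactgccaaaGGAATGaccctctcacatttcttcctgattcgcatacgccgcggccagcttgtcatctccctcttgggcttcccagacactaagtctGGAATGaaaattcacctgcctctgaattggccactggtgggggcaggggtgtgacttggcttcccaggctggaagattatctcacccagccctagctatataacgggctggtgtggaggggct
F3: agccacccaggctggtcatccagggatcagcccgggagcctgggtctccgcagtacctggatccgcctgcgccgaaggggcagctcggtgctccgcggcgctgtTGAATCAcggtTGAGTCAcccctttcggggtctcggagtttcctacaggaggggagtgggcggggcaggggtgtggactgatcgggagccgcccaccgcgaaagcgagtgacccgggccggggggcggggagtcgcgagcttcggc

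In Ccn1 the TEAD letters began 103 bases before the start, and in Ankrd1 a pair of them began 210 and 123 bases before it. F3 held AP-1 letters at 146 and 135 bases. For the other 5 genes only the surrounding bases are shown, so that the shared letters can be compared. They began 233 bases before the start in Axl, 79 in Crim1, 65 in Amotl2, 186 and 164 in Ajuba, and 146 in Ptpn14. A match describes the letters only; no binding was measured, and the genes are known YAP targets, so the share with a match is not independent of how they were chosen.
Axl: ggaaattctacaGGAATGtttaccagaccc
Crim1: agggcgggggggGGAATGaggtaggatggg
Amotl2: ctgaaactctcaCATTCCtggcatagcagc
Ajuba, distal: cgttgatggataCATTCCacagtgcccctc
Ajuba, proximal: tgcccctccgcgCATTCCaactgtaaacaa
Ptpn14: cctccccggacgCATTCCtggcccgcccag

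Across the series the targets stepped up with the gates, but not together. From early to intermediate, 7 of the 10 rose (Ccn1, Ccn2, Ankrd1, F3, Amotl2, Ajuba, Ptpn14) and none fell by edgeR's quasi-likelihood test at an adjusted p under 0.05; 54.4% of all 16210 genes were called in this comparison, 28.7% as higher. From intermediate to full, 6 rose (Ccn2, Ankrd1, Axl, Crim1, Amotl2, Ptpn14), against 40.7% of all genes called and 20.8% called higher. A block on the replicate number added F3 and Nuak2 as higher at this step, against 45.0% of all genes called. From full to BEC, 2 rose (Crim1, Nuak2) and none fell, against 21.3% of all genes called and 10.7% called higher. With the replicate number as a block, 5 were called at that last step, 4 as higher and Ccn1 as lower, against 25.3% of all genes called. At an unadjusted p under 0.05, 0, 0 and 1 of the 10 (Ccn1) were lower at the 3 steps, and DESeq2 called none lower from full to BEC. The median log2 fold change of the 10 genes was 1.29, 0.61 and -0.01 at the 3 steps, and that of all genes 0.06, 0.01 and 0.00. Scaling on total counts alone would move the all-gene median of the first step to 0.72 and call all 10 genes higher there, with 59.4% of all genes. Without early replicate 2, which had the highest mitochondrial share, 7 of the 10 were called higher at the first step, and 49.97% of all genes were called.

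Ccn2, Ankrd1, Amotl2 and Ptpn14 rose at both of the first 2 steps, a pattern shared by 12.8% of all genes. F3 joined them when the replicate number was a block, a fit in which the share of all genes with this pattern was not counted. None of the 10 rose at all 3 steps, which 3.31% of genes did, and none was higher in full cells than in both early cells and BEC, a pattern of 4.12% of genes. With the replicate number as a block in the fit, 2 of the 10 (Ankrd1 and F3) rose at all 3 steps, against 4.05% of genes, and 1 (Ccn1) was higher in full cells than in both early cells and BEC, against 5.00%. Each of the 10 differed somewhere among the 4 groups, as did 75.6% of all genes. In bulk libraries a change in the share of cells that express a gene and a change in RNA per cell cannot be told apart.

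**Figure D1:**
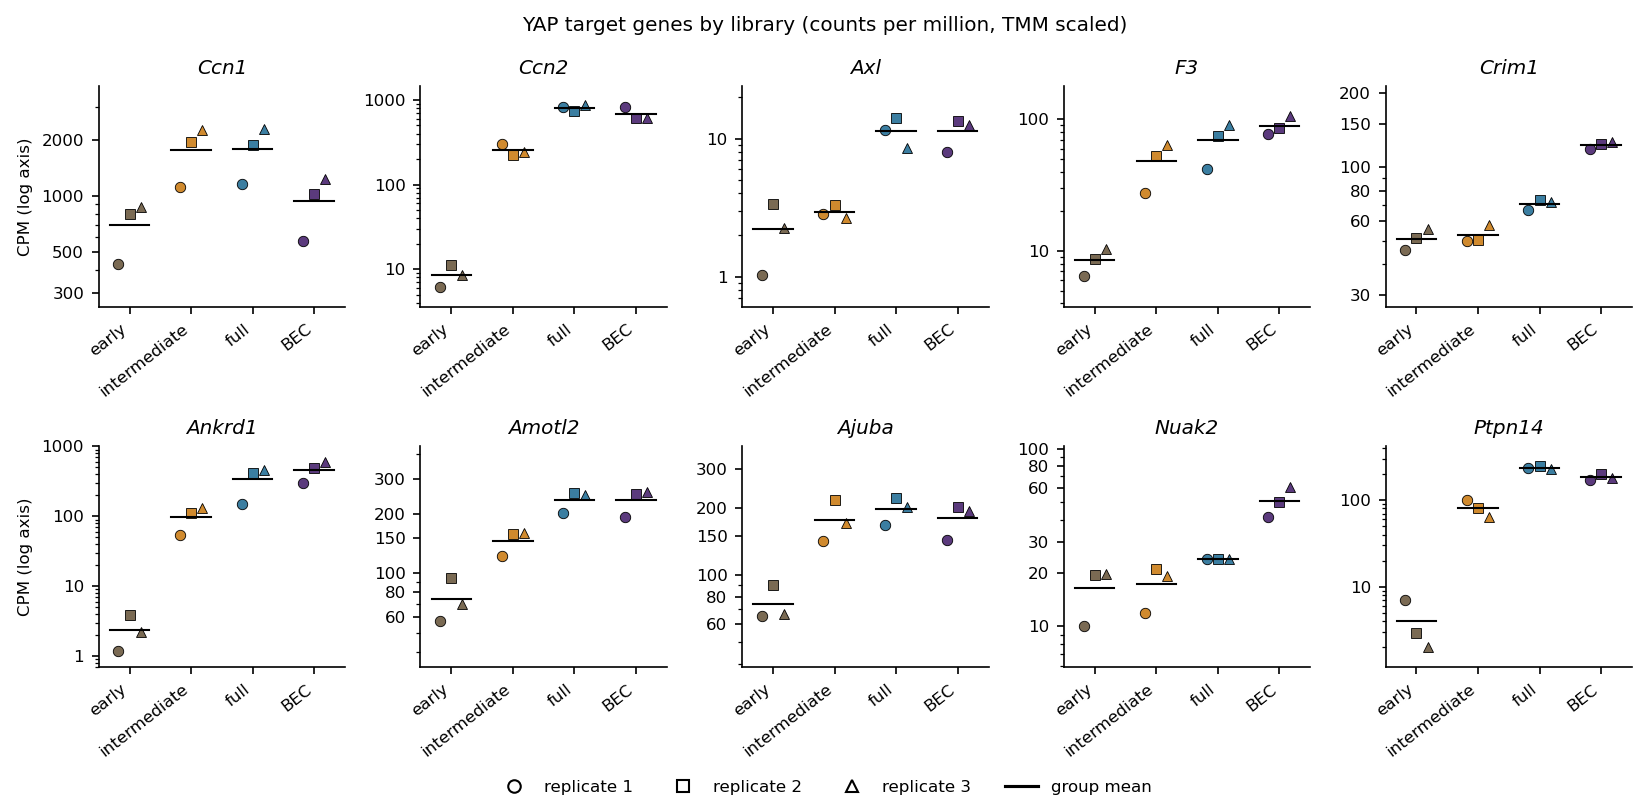
Level of each of the 10 genes in each of the 12 libraries, in TMM-scaled CPM on a log axis whose range differs between panels, with replicates 1, 2 and 3 as circles, squares and triangles and the group mean as a bar. Ccn2, Ankrd1 and Ptpn14 are at most 11.2 CPM in every early library and at least 53.7 CPM in every other library, while Crim1 and Nuak2 are highest in BEC.

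**Figure D2:**
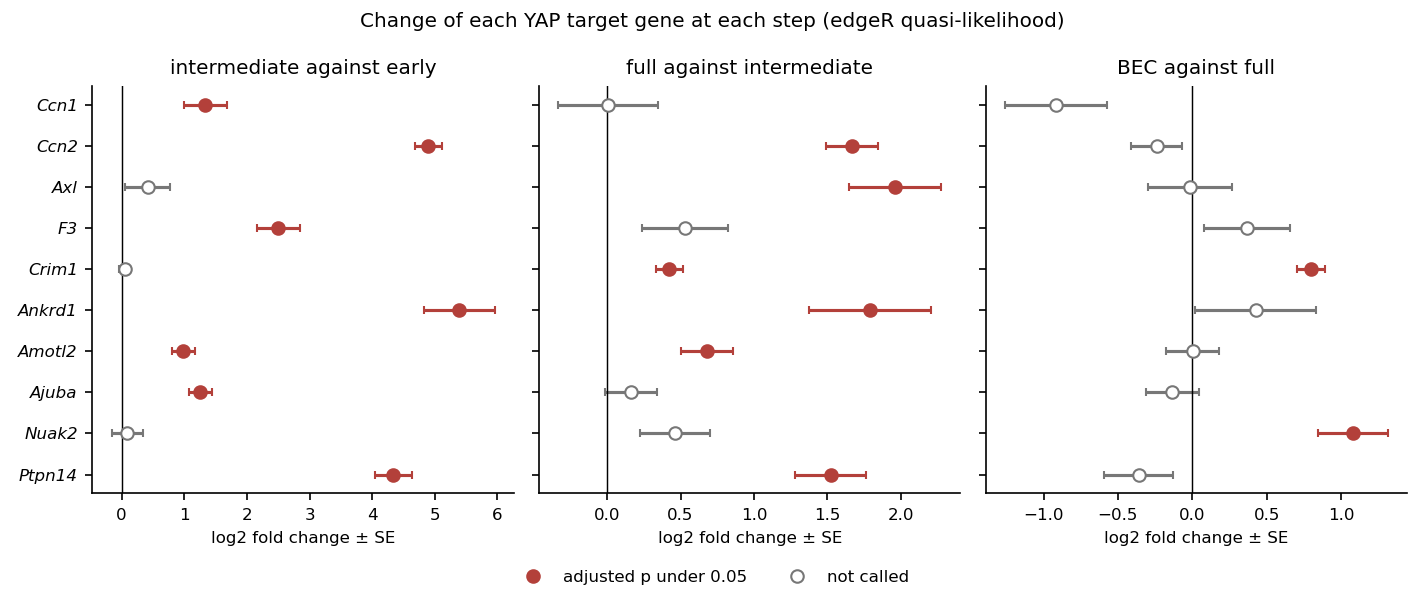
Log2 fold change of each gene at the 3 steps between neighbouring groups, with bars of 1 standard error and filled points where the edgeR adjusted p was under 0.05; the horizontal ranges differ between panels. Ankrd1, Ccn2 and Ptpn14 have the largest first steps (5.39, 4.90 and 4.34), Axl the largest second step (1.96), and Nuak2 and Crim1 the only called points of the third panel.

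Ccn1 (formerly Cyr61), a secreted matrix protein that signals through integrins, had the highest group mean per kilobase of transcript among the 10 in each of the 4 groups. Its level was 431, 793 and 871 CPM in early replicates 1 to 3, 1114, 1934 and 2237 CPM in intermediate, 1152, 1880 and 2278 CPM in full, and 574, 1016 and 1221 CPM in BEC. All early libraries lay below all intermediate and full libraries, and the BEC libraries overlapped the early range and the lower ends of the intermediate and full ranges. Ccn1 rose 2.52-fold at the first step (log2 fold change 1.34, SE 0.35, edgeR adjusted p = 0.00497) but did not change detectably at the second (0.01, 95% interval -0.73 to 0.74, edgeR adjusted p = 0.989).

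In BEC, Ccn1 was lower than in full cells by a log2 fold change of -0.92 (SE 0.34), which missed the threshold with edgeR (adjusted p = 0.0780). The libraries of a replicate number moved together, and within each number the BEC to full ratio was 0.498, 0.540 and 0.536. With the replicate number as a block, the difference was called (-0.93, edgeR adjusted p = 1.68e-06). Without early replicate 1 or without full replicate 1 it was also called (edgeR adjusted p = 0.0460 and 0.0394). Against intermediate cells Ccn1 was lower in BEC (-0.91, edgeR adjusted p = 0.0388), but not with DESeq2 (adjusted p = 0.0543), a robust fit (edgeR, 0.0729) or total-count scaling (edgeR, 0.100), nor without intermediate replicate 2 or 3 or BEC replicate 1 or 2 (edgeR adjusted p = 0.0680 to 0.148). The order of Ccn1 was thus early, BEC, intermediate, full. Intermediate and full did not differ beyond their spread. Nor did early and BEC without a block (0.42, edgeR adjusted p = 0.278), but the BEC to early ratio was 1.33, 1.28 and 1.40 within the 3 numbers, and the block called this difference (edgeR adjusted p = 0.000323). Over all genes, the deviations of same-numbered early and BEC libraries from their group means correlated at 0.0442 to 0.145, and those of neighbouring groups at 0.121 to 0.322.

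Ccn2 (formerly Ctgf), the other secreted matrix protein and a widely used YAP readout, changed far more. It measured 6.09, 11.2 and 8.58 CPM in early, 299, 225 and 244 CPM in intermediate, 828, 749 and 860 CPM in full, and 828, 618 and 619 CPM in BEC. Early, intermediate and the other two groups formed 3 levels without overlap, and full and BEC overlapped. The rise was 29.8-fold at the first step (log2 fold change 4.90, SE 0.21, edgeR adjusted p = 1.22e-09), followed by 3.17-fold at the second (1.67, SE 0.18, edgeR adjusted p = 6.23e-06). Full and BEC did not differ beyond their spread (-0.24, 95% interval -0.61 to 0.13). With replicate 1 of every group removed, Ccn2 was called lower in BEC (-0.38, edgeR adjusted p = 0.0423).

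The CCN genes also differed in level. On a scale of CPM per kilobase of the longest annotated transcript, Ccn1 stood at 346 ± 116 in early cells (SD, n = 3) and Ccn2 at 3.46 ± 1.02. In BEC the levels per kilobase were 464 ± 164 for Ccn1 and 276 ± 48.6 for Ccn2.

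Among the cell surface proteins, Axl, a receptor tyrosine kinase for the ligand GAS6, had the lowest group mean per kilobase of the 10 in intermediate, full and BEC. Its level was 1.03, 3.36 and 2.27 CPM in early, 2.83, 3.29 and 2.66 CPM in intermediate, 11.6, 14.1 and 8.57 CPM in full, and 8.00, 13.3 and 12.5 CPM in BEC. Early and intermediate libraries overlapped, as did full and BEC, with a gap between the pairs. The first step was not called (log2 fold change 0.42, 95% interval -0.37 to 1.20, edgeR adjusted p = 0.355), and the second was 3.89-fold (1.96, SE 0.31, edgeR adjusted p = 0.000220). Early libraries held 13, 37 and 28 counts of Axl.

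F3 encodes tissue factor, the surface protein that starts the extrinsic clotting cascade with factor VII. It measured 6.41, 8.64 and 10.4 CPM in early, 27.3, 52.5 and 64.0 CPM in intermediate, 42.0, 75.0 and 91.3 CPM in full, and 77.5, 85.8 and 105 CPM in BEC. All early libraries were below all others, the full range overlapped both the intermediate and the BEC range, and all intermediate libraries were below all BEC libraries. F3 rose 5.66-fold at the first step (log2 fold change 2.50, SE 0.34, edgeR adjusted p = 3.03e-05).

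The later steps of F3 were smaller and were not called. They were 0.53 (edgeR adjusted p = 0.173) and 0.37 (edgeR adjusted p = 0.459) on the log2 scale. With the block they were 0.54 (edgeR adjusted p = 0.00541) and 0.43 (edgeR adjusted p = 0.0285), and the full to intermediate ratio was 1.53, 1.43 and 1.43 within the 3 numbers. Without full replicate 1 the second step was called with no block (0.79, edgeR adjusted p = 0.0388). BEC exceeded intermediate by 0.90 (edgeR adjusted p = 0.0204), which was lost without intermediate replicate 1 (0.62, edgeR adjusted p = 0.0700) or BEC replicate 3 (0.76, edgeR adjusted p = 0.0720).

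Crim1, a transmembrane protein that binds bone morphogenetic proteins, was not called at the first step and rose later. It measured 45.6, 51.3 and 55.9 CPM in early, 49.6, 50.2 and 58.1 CPM in intermediate, 66.6, 73.3 and 72.0 CPM in full, and 118, 124 and 126 CPM in BEC. Early and intermediate overlapped, and all full libraries and then all BEC libraries lay above. The first step was 0.05 on the log2 scale (edgeR adjusted p = 0.707), and changed sign with median-of-ratios scaling. Crim1 rose 1.34-fold at the second step (0.42, SE 0.09, edgeR adjusted p = 0.00253) and 1.74-fold at the third (0.80, SE 0.09, edgeR adjusted p = 3.21e-05).

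Ankrd1, an ankyrin repeat protein of heart muscle and a transcriptional cofactor induced by YAP, had the largest first step of the 10. Its level was 1.19, 3.82 and 2.19 CPM in early, 53.7, 112 and 132 CPM in intermediate, 148, 417 and 465 CPM in full, and 304, 488 and 590 CPM in BEC. Early, intermediate and full did not overlap, full and BEC did, and replicate 1 was the lowest of its group each time. The first step was 42.1-fold (log2 fold change 5.39, SE 0.56, edgeR adjusted p = 2.52e-06) from 15 to 42 counts in the early libraries, and the second 3.46-fold (1.79, SE 0.42, edgeR adjusted p = 0.00369). At the first step 243 of the 16210 genes had a larger log2 fold change.

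BEC exceeded full cells in Ankrd1 by 0.42 on the log2 scale, which was not called (95% interval -0.45 to 1.30, edgeR adjusted p = 0.552). With the replicate block it was called (0.53, edgeR adjusted p = 0.0135). The BEC to full ratio was 2.05, 1.17 and 1.27 within the 3 replicate numbers, above 1 in 3 of 3.

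Of the proteins that act back on the Hippo pathway, Amotl2, an angiomotin known to tether YAP at junctions, rose at both of the first steps. It measured 56.9, 94.9 and 69.6 CPM in early, 122, 157 and 159 CPM in intermediate, 202, 254 and 247 CPM in full, and 193, 252 and 258 CPM in BEC. It formed 3 levels without overlap, the highest shared by full and BEC. It rose 1.98-fold (log2 fold change 0.99, SE 0.18, edgeR adjusted p = 0.000385), then 1.60-fold (0.68, SE 0.18, edgeR adjusted p = 0.00725), and BEC and full differed by 0.00 (95% interval -0.38 to 0.38).

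Ajuba, a LIM protein that restrains LATS kinases, measured 65.6, 89.9 and 67.1 CPM in early, 142, 218 and 171 CPM in intermediate, 168, 223 and 202 CPM in full, and 144, 201 and 195 CPM in BEC. The early libraries lay apart and the other three groups overlapped. Ajuba rose 2.39-fold at the first step (log2 fold change 1.25, SE 0.18, edgeR adjusted p = 5.43e-05), with 0.16 (95% interval -0.22 to 0.54) and -0.14 (-0.52 to 0.25) after it. Its mean log2 level in intermediate cells covered 97.6% of the difference between early and BEC (85.0% to 109% without 1 library).

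Nuak2, a kinase of the AMPK family reported to limit LATS activity, was called at the third step and, in the fit without a block, at neither step before it. It measured 10.05, 19.6 and 19.7 CPM in early, 11.9, 21.0 and 19.2 CPM in intermediate, 24.0, 24.1 and 24.0 CPM in full, and 41.1, 50.5 and 60.8 CPM in BEC. Early and intermediate overlapped, full lay just above both without overlap (as in 25.3% of genes), and BEC stood apart. Nuak2 rose 2.11-fold from full to BEC (log2 fold change 1.08, SE 0.23, edgeR adjusted p = 0.00411). The first step was 0.09 (edgeR adjusted p = 0.790) and the second 0.46 (edgeR adjusted p = 0.144), which the replicate block called (0.51, edgeR adjusted p = 0.0224).

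Ptpn14, a tyrosine phosphatase that holds YAP outside the nucleus, measured 7.04, 2.91 and 2.02 CPM in early, 101, 80.8 and 63.9 CPM in intermediate, 231, 245 and 228 CPM in full, and 170, 198 and 180 CPM in BEC. No group overlapped another, and the full cells were highest. The rise was 20.3-fold at the first step (log2 fold change 4.34, SE 0.30, edgeR adjusted p = 6.27e-08), followed by 2.87-fold at the second (1.52, SE 0.24, edgeR adjusted p = 0.000190). The size of the first step varied, with ratios of 14.3, 27.8 and 31.6 within the 3 replicate numbers. Its log2 fold change was 4.02 to 5.06 without 1 library. All BEC libraries lay below all full libraries, as in 19.0% of genes, but the difference was not called (-0.36, 95% interval -0.86 to 0.14, edgeR adjusted p = 0.344). Fitted to the 6 full and BEC libraries alone, it was called (-0.38, edgeR adjusted p = 0.00735). The BEC to full ratio was 0.735, 0.809 and 0.791 within the 3 replicate numbers.

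Against early cells, 9 of the 10 were higher in full cells (71.2% of all genes called, 39.1% as higher), Nuak2 being the exception (log2 fold change 0.55, edgeR adjusted p = 0.0584, but 0.0306 to 0.0486 without early replicate 2 or 3 or intermediate replicate 1, and 0.00573 with the replicate block). The same number were higher in BEC than in early cells (73.1% of all genes called, 40.0% as higher), there with Ccn1 as the exception (0.42, edgeR adjusted p = 0.278, but 0.000323 with the replicate block). These comparisons share their early libraries. Between BEC and intermediate cells 9 were called (52.4% of all genes), 8 as higher (26.3%) and Ccn1 as lower (26.2%), and Ajuba was not (0.02, edgeR adjusted p = 0.922).

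Whether a gene moved more at the first than at the second step was tested as 1 contrast. It was larger at the first step for Ccn2 (a log2 difference of 3.23, edgeR adjusted p = 9.60e-06), Ankrd1 (3.60, edgeR adjusted p = 0.00633), F3 (1.97, edgeR adjusted p = 0.0207), Ajuba (1.09, edgeR adjusted p = 0.0254) and Ptpn14 (2.82, edgeR adjusted p = 0.000614), 5 of 10, against 10.8% of all genes. None of the 10 was called as larger at the second step with edgeR, against 5.64% of all genes, although 2 had an unadjusted p under 0.05 and DESeq2 called those 2. They were Axl (-1.54, edgeR adjusted p = 0.0970, but 0.0205 without early replicate 1; DESeq2 adjusted p = 0.0270) and Crim1 (DESeq2 adjusted p = 0.0494). For Ccn1 (1.33, edgeR adjusted p = 0.143) and Amotl2 (0.31, edgeR adjusted p = 0.568) the steps were not shown to differ in this fit. With the replicate block, 6 of the 10 were called as larger at the first step, against 13.8% of all genes, the added gene being Ccn1 (1.33, edgeR adjusted p = 1.63e-05), and 1 as larger at the second, against 7.72%, Axl (-1.53, edgeR adjusted p = 0.0403). The call was lost for F3 without intermediate replicate 2 or 3 (edgeR adjusted p = 0.0851 and 0.122) and for Ajuba without early replicate 3, intermediate replicate 2 or 3, or full replicate 1 (edgeR adjusted p = 0.0515 to 0.180).

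Replicate 1 stood lower than replicates 2 and 3 for part of the genes in all 4 groups. This held for Ccn1, Ankrd1, Crim1, F3, Amotl2 and Ajuba, 6 of the 10, and for 6.63% of all tested genes. Replicate 1 held 0.612 to 0.651 of the group mean of Ccn1 and 0.431 to 0.659 of that of Ankrd1. Ptpn14 did not share this, with 0.929 to 1.76 of the group mean in replicate 1.

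Genes of the dissociation stress response moved with the same libraries. Of 11 such genes (among them Fos, Jun, Egr1 and Atf3, immediate early genes induced while tissue is taken apart), 9 were lowest in replicate 1 in all 4 groups, and their summed level in replicate 1 was 0.637 to 0.723 of the group mean. Summed, they stood at 3298 to 5717 CPM in early, 3868 to 7729 CPM in intermediate, 4735 to 7777 CPM in full and 3777 to 7074 CPM in BEC. At the first step 2 of the 11 rose (Hspa1a and Hspa1b), and at an unadjusted p under 0.05 5 were higher and 1 lower. None was called at the second or the third, where 1 and 0 had an unadjusted p under 0.05. Of all genes, 54.4%, 40.7% and 21.3% were called at the 3 steps. Against early cells, 5 of the stress genes were higher and 1 lower in full cells, and 5 were higher and 2 lower in BEC, by edgeR at an adjusted p under 0.05, with 39.1% and 40.0% of all genes called higher. Their part in the levels of the YAP targets was not tested. With replicate 1 of every group removed, the calls among the 10 genes were 7, 7 and 4 at the 3 steps, in place of 7, 6 and 2, and 52.2%, 43.8% and 21.8% of all genes were called in that fit. The calls it added at the third step were Ccn1 and Ccn2, both lower in BEC.

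**Figure D3:**
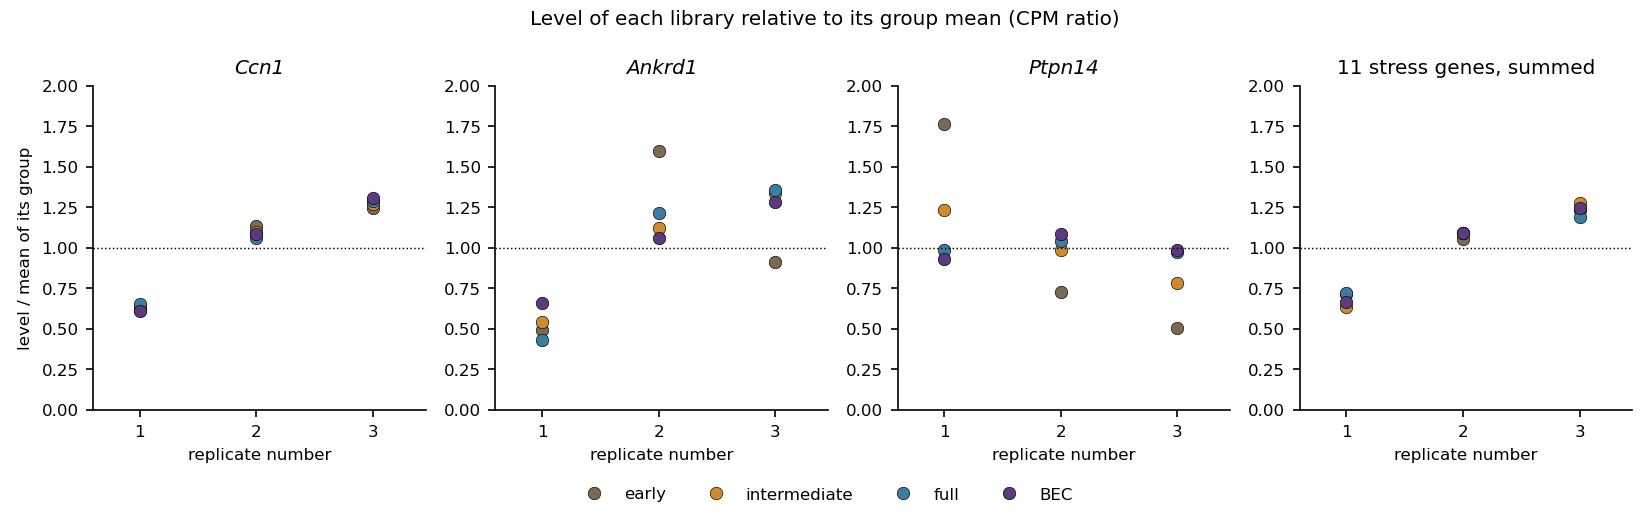
Level of each library divided by the mean of its group, by replicate number and coloured by group, for Ccn1, Ankrd1, Ptpn14 and the sum of 11 dissociation stress genes; the dotted line is the group mean. Replicate 1 lies at 0.612 to 0.651 for Ccn1 and at 0.637 to 0.723 for the stress genes, and at 0.929 to 1.76 for Ptpn14.

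Other cell types that express these genes were looked for with marker lists. Stellate cell and fibroblast markers (11 genes) summed to 114 to 333 CPM in early, 68.1 to 197 CPM in intermediate, 49.99 to 87.1 CPM in full and 65.4 to 111 CPM in BEC; among the 10 of them tested, 2 fell at the first step, 1 at the second and 1 at the third, and none rose (0, 0 and 1 were higher at an unadjusted p under 0.05), against 25.7%, 19.8% and 10.6% of all genes that fell. Endothelial markers (7 genes) summed to at most 22.3 CPM, in early cells. Mesothelial markers (5 genes) summed to 3.56 to 6.46 CPM in early, 2.45 to 3.51 CPM in intermediate, 29.7 to 44.97 CPM in full and 225 to 249 CPM in BEC, of which Msln made up 198 ± 13.2 CPM (SD, n = 3) and Gpm6a 41.5 ± 10.3 CPM in BEC, with Upk3b, Wt1 and Lrrn4 each under 1 CPM there. Macrophage markers (7 genes) summed to 20.4 to 22.4 CPM in early, 28.6 to 31.3 CPM in intermediate, 64.4 to 81.7 CPM in full and 132 to 141 CPM in BEC, of which Csf1r made up 127 ± 6.69 CPM, while Adgre1 was at most 1.05 CPM. Cd68, of the same list, was highest in early cells and averaged 14.0, 2.74, 1.62 and 3.46 CPM in early, intermediate, full and BEC. The part of these cells in the levels of the YAP targets was not tested.

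The remaining genes of a commonly used YAP signature were counted in the same way. Of 13 such genes, 12 could be tested (Foxf2 could not). At the first step 8 rose and 1 fell (8 and 0 with total-count scaling), at the second 5 rose and 1 fell, and at the third 3 rose and 2 fell, with medians of 1.03, 0.38 and 0.17 on the log2 scale. Of all genes, 28.7% rose and 25.7% fell at the first step, 20.8% and 19.8% at the second, and 10.7% and 10.6% at the third; with total-count scaling 59.4% rose and 10.01% fell at the first and 32.3% and 12.2% at the second. Fjx1 was at or under the floor in every early library and reached 15.8 CPM on average in intermediate cells, at least 62.9-fold higher. Arhgef17 rose by 5.46 and then 2.80 on the log2 scale (edgeR adjusted p = 1.25e-07 and 2.19e-06), and Myof, a membrane repair protein, by 3.58 at the first step (edgeR adjusted p = 9.78e-10).

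Other signature genes rose further at the later steps or fell. Rbms3, an RNA-binding protein, rose by 1.31 at the first step (edgeR adjusted p = 0.00185), 3.88 at the second (edgeR adjusted p = 3.39e-08) and 0.67 at the third (edgeR adjusted p = 0.0103). Igfbp3, an insulin-like growth factor binding protein, rose by 2.54 at the first (edgeR adjusted p = 0.00599) and 1.85 at the second (edgeR adjusted p = 0.0119). Its intermediate libraries were far apart, at 23.6, 8.00 and 2.49 CPM in replicates 1 to 3. The last of these lay within the early range of 0.949 to 2.55 CPM. Dock5, a Rac exchange factor, fell at the first step (-0.42, edgeR adjusted p = 0.0108) and rose at the third (0.55, edgeR adjusted p = 0.00519). From full to BEC, Nt5e, the ectoenzyme CD73, fell 8.72-fold (-3.12, edgeR adjusted p = 1.83e-05) and Tgfb2 1.43-fold (-0.52, edgeR adjusted p = 0.00608). The gene that fell at the second step was Ccdc80, named here after its values were seen (-1.12, edgeR adjusted p = 0.0204). It averaged 6.57 CPM in intermediate and 3.02 CPM in full cells and was higher again in BEC, at 6.72 CPM.

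The mRNA of YAP itself was not called at the first step, whereas 3 of the 4 TEAD genes rose there. Yap1 averaged 141 ± 2.72, 160 ± 15.5, 148 ± 4.18 and 121 ± 9.65 CPM in early, intermediate, full and BEC (SD, n = 3), with no call at the first or second step (log2 fold change 0.18 and -0.11) and a fall of 1.22-fold from full to BEC (-0.29, edgeR adjusted p = 0.0377). Wwtr1, which encodes TAZ, rose 1.55-fold at the first step (0.64, edgeR adjusted p = 3.28e-05), from 56.2 ± 5.81 to 87.5 ± 3.57 CPM. Of the 4 TEAD genes, Tead2 rose 37.6-fold at that step (5.23, edgeR adjusted p = 9.79e-11), Tead4 5.99-fold (2.58, edgeR adjusted p = 6.73e-08) and Tead1 2.86-fold (1.52, edgeR adjusted p = 4.09e-07), and Tead3 was not called (0.12, edgeR adjusted p = 0.510).

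Over 16 regulators (YAP, TAZ, the TEADs, VGLL4 and the Hippo kinases with their adaptors), 12 rose and none fell at the first step, with a median of 0.47 (0 were lower at an unadjusted p under 0.05, and 0 with DESeq2), against 28.7% of all genes called higher and 25.7% lower. At the second step 4 rose and 1 fell, against 20.8% higher and 19.8% lower over all genes. This count of 5 depended on the setting: it was 11 with DESeq2, 8 with the replicate block and 3 to 9 without 1 library, and total-count scaling gave 12 higher and 0 lower (32.3% and 12.2% of all genes). Tead2 rose further (0.57, edgeR adjusted p = 0.000542), as did Vgll4, a competitor of YAP for TEAD (0.49, edgeR adjusted p = 0.00181), and Nf2, an upstream activator of LATS (0.49, edgeR adjusted p = 0.00636), while Mob1b, a LATS cofactor, fell (-0.28, edgeR adjusted p = 0.0221), a call lost with total-count scaling, with no filter, and without intermediate replicate 1 or 3 or full replicate 1 or 2. At the third step Wwc1, known as KIBRA, rose (0.38, edgeR adjusted p = 0.00584) and 3 fell, Tead2 (-1.18, edgeR adjusted p = 2.60e-06), Vgll4 (-0.42, edgeR adjusted p = 0.0102) and Yap1, against 10.7% higher and 10.6% lower over all genes. Lats2 stands in both this list and the signature.

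**Figure D4:**
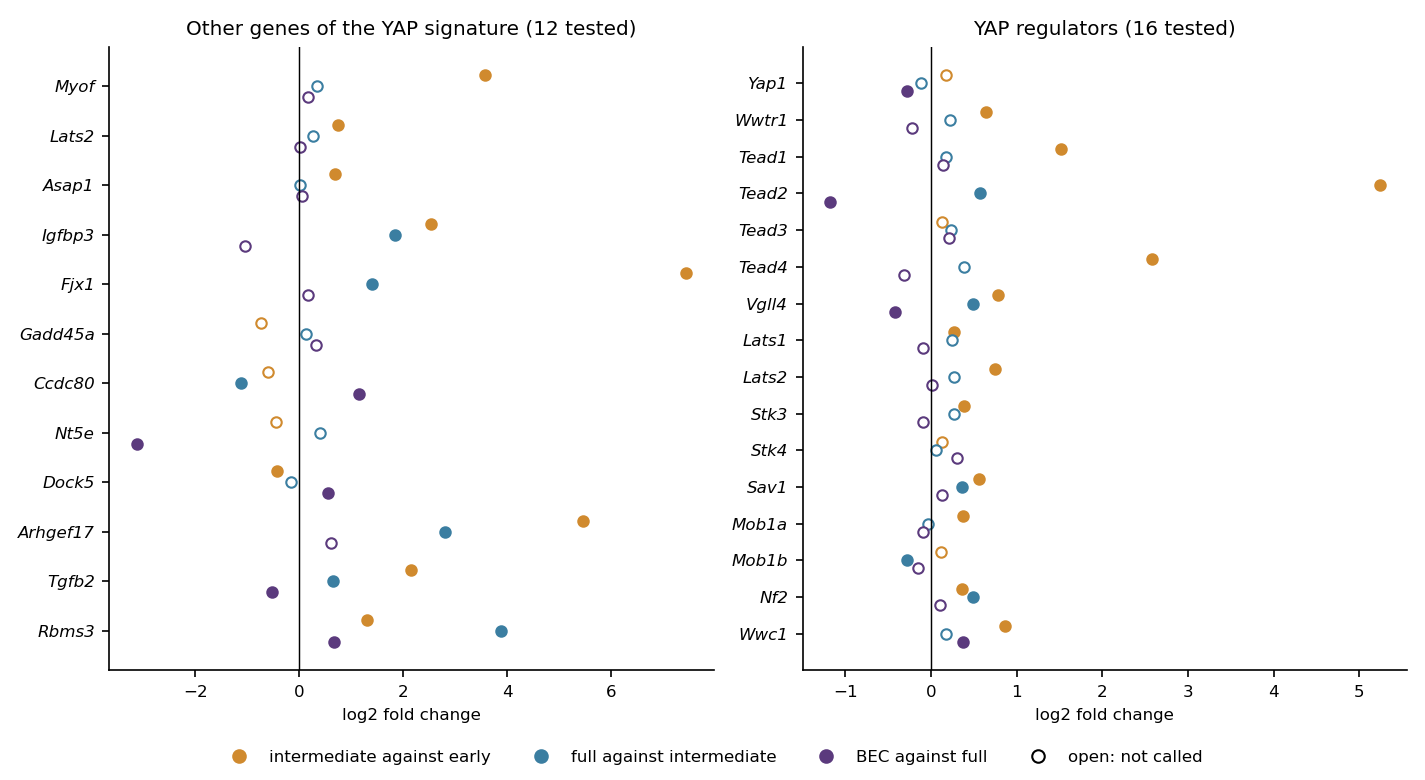
Log2 fold change at each of the 3 steps for the other 12 tested genes of the YAP signature (left) and 16 YAP regulators (right), coloured by step and filled where the edgeR adjusted p was under 0.05; the horizontal ranges differ. Tead2 has the largest first step among the regulators (5.23) and the most negative value at the third step (-1.18), and Nt5e the most negative there among the signature genes (-3.12).

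Close relatives and binding partners of the 10 proteins moved in both directions. Of 24 such genes, 21 were tested; at the first step 11 rose and 4 fell (17 and 3 with total-count scaling), at the second 12 rose and 4 fell, and at the third 7 rose and 6 fell. The shares of all genes that rose and fell were 28.7% and 25.7% (59.4% and 10.01% with total-count scaling), 20.8% and 19.8%, and 10.7% and 10.6%. For the AXL system, the ligand gene Gas6 rose at the first step (log2 fold change 1.43, edgeR adjusted p = 2.96e-07), at the second (0.82, edgeR adjusted p = 7.55e-05) and from full to BEC (1.08, edgeR adjusted p = 1.60e-05), reaching 1446 CPM there. For tissue factor, the clotting factor genes F10 and F7 fell at the first and the second step. The log2 fold changes were -2.29 and then -3.40 for F10 (edgeR adjusted p = 3.22e-06 and 4.63e-07), and -1.81 and then -3.25 for F7 (edgeR adjusted p = 4.48e-05 and 1.51e-06). Tfpi, of the same list and named here after its values were seen, did not fall. It averaged 0.789, 0.921, 3.16 and 5.96 CPM in early, intermediate, full and BEC.

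Among receptors for CCN proteins, Itgav, an integrin chain, rose at the first step (1.38, edgeR adjusted p = 2.19e-06). Itgb6, the epithelial integrin beta chain that pairs with it, was at or under the floor in early cells, averaged 0.318 CPM in intermediate and 12.4 CPM in full cells and reached 114 CPM in BEC (second step edgeR adjusted p = 3.54e-07, and 6.12e-07 at the third step). Lrp1, an endocytic receptor abundant in hepatocytes, fell at each step (-1.29, -0.68 and -1.58, edgeR adjusted p = 2.23e-05, 0.00546 and 1.76e-05).

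Paralogues of the 10 were read at the same steps. Amotl1 rose at the first step by 2.46 (edgeR adjusted p = 0.000794), at the second by 4.05 (edgeR adjusted p = 5.06e-07) and at the third by 0.80 (edgeR adjusted p = 0.0445), where Amotl2 had 0.99, 0.68 and 0.00. Early libraries held only 1 to 21 counts of Amotl1, with 1 library under the floor, so the size of its first step is uncertain. Nuak1 rose by 1.46 at the first step (edgeR adjusted p = 6.01e-06), 1.58 at the second (edgeR adjusted p = 1.28e-06) and 0.48 at the third (edgeR adjusted p = 0.0153). Wtip, an Ajuba relative, rose at the first step by 2.32 (edgeR adjusted p = 1.68e-07) and at the second by 0.49 (edgeR adjusted p = 0.0214), and fell from full to BEC (-0.62, edgeR adjusted p = 0.0103). Ptpn21, the relative of Ptpn14, rose at the first step by 0.97 (edgeR adjusted p = 2.74e-06), had -0.12 with no call after it, and fell from full to BEC (-0.56, edgeR adjusted p = 0.00109). These differences between paralogues were not themselves tested.

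The 10 genes were compared in shape by the root mean square (RMS) difference of their log2 CPM, each centred on its mean over the 12 libraries. Amotl2 and Ajuba were nearest each other (0.270), as were Crim1 and Nuak2 (0.300) and Ccn2 and Ptpn14 (0.598). Ankrd1 lay farthest from Crim1 (2.73).

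Among 9955 other genes with a mean of at least 10 CPM, those nearest in shape were picked by the same measure. For Ccn1 they were Bdnf (RMS difference 0.300) and Klf6 (0.307), which also stood higher in intermediate and full cells than in early cells and BEC: Klf6 averaged 151, 393, 309 and 210 CPM in early, intermediate, full and BEC. For Ccn2 they were Arhgef10 (0.234) and Slc7a6 (0.298), and for Ptpn14 Tmem231 (0.295) and Kcnab1 (0.309). For Ankrd1 they were Foxj1 (0.451) and Thbs1 (0.508), the latter a secreted matrix protein that averaged 5.45, 175, 399 and 530.4 CPM in the 4 groups. For F3 they were Pkhd1 (0.297), the duct cilium gene fibrocystin, and Bbs1 (0.301).

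For the other 5 genes the same search was made. Amotl2 was nearest Crocc (0.145) and Ankrd24 (0.149), Ajuba nearest Gas8 (0.154) and Ano8 (0.164), Crim1 nearest Lrba (0.111) and Plxnb2 (0.121), Nuak2 nearest Atp10d (0.228) and Odc1 (0.239), and Axl nearest Phf11d (0.336) and Pgm2l1 (0.401). The spread of a gene over the libraries sets the scale of this measure: it was 0.54 log2 units (SD, 12 libraries) for Crim1 and 3.21 for Ankrd1.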

How the data were processed

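Each library's values are gene counts that the authors deposited as 1 table; STAR 2.7.10b, featureCounts 2.0.1, DESeq2 and build GRCm39 are named in the submitters' processing notes, with no role or order. The annotation and strand setting are not given in the sources used here. A second deposited table, of scaled values, was not used here.

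Counts were tested with edgeR 4.0.16 (limma 3.58.1, R 4.3.3): filterByExpr by group kept 16210 genes, TMM factors were applied, and a quasi-likelihood model with 1 term per group was fitted to all 12 libraries, with Benjamini-Hochberg adjustment over all kept genes. The common biological coefficient of variation was 14.8%. Fold changes carry edgeR's default shrinkage, and levels are TMM-scaled CPM. Levels per kilobase used the longest transcript of the reference's GENCODE annotation. Nothing in the labels says that replicates were separate animals, so p-values measure the spread between these libraries, which may be technical. Replicates of a group differed by more than sampling noise (chi-square per degree of freedom 4.95 to 52.1).

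Same-numbered libraries deviated together at the 3 steps (correlations of deviations from the group means 0.121 to 0.293, 0.137 to 0.322 and 0.170 to 0.257), so a replicate block is given beside a step, or a contrast or pattern of steps, where it changes a call. In the other 3 comparisons at least 1 pair was under 0.1.

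All members are named. Of the other lists, up to 3 genes a direction and step are named, those with the largest change among the called ones whose higher group averaged 10 CPM or more, and Yap1, Wwtr1 and the TEAD genes always. The members, lists and tests were chosen with earlier results of these data known. Promoters were searched with Python 3.11.15 and figures drawn with matplotlib 3.10.9. Alternatives were DESeq2 1.42.0, other scaling and filters, the block, a robust fit, the compared libraries alone, each library left out, and, added after seeing the data, replicate 1 of every group left out.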

Additional observations from a re-analysis of the deposited data

How the results depend on the processing

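Of 355 counts of called genes recomputed under the alternatives, 338 stayed within 1.5 times the value reported, and of 1460 member fold changes 1375 kept direction and side of the threshold. The 2 members called from full to BEC became 5 with the replicate block (25.3% of all genes called), 4 with the 6 compared libraries alone (26.3%) and 4 with replicate 1 of every group left out (21.8%). The block added Ankrd1 and F3 as higher and Ccn1 as lower. The 6 libraries added Ccn1 (-0.94, edgeR adjusted p = 0.0359) and Ptpn14 (-0.38, edgeR adjusted p = 0.00735), both as lower. Leaving out replicate 1 added Ccn1 (-0.89, edgeR adjusted p = 0.00142) and Ccn2 (-0.38, edgeR adjusted p = 0.0423), both as lower. The 5 regulators called at the second step became 11 with DESeq2, 9 with median-of-ratios factors, 12 with total counts, 8 with a mean of at least 50 counts, 8 with the replicate block and 9 with the 6 compared libraries, and the 4 called at the third step became 7 with the 6 libraries. Leaving out 1 library gave 3 to 6 members for the difference between the steps (5 reported), 3 to 9 regulators at the second step, 3 to 7 other signature genes at the third (5 reported) and 8 to 13 relatives or partners there (13 reported). The cause was not tested.

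Directions turned only for fold changes that were not called. Crim1 at the first step was -0.0068 with DESeq2 and -0.0070 with median-of-ratios factors, and -0.029 to 0.12 without 1 library. With replicate 1 of every group left out, Ccn1 at the second step was -0.0041 and Axl from full to BEC 0.19. Amotl2 from full to BEC was -0.027 with no filter, -0.0025 with the replicate block and -0.015 with the 6 libraries. With total counts the step difference was 0.083 for Crim1 and 0.086 for Nuak2. Without 1 library, the ranges were -0.17 to 0.30 for Nuak2 at the first step, -0.24 to 0.24 for Ccn1 at the second, -0.19 to 0.18 for Axl and -0.10 to 0.12 for Amotl2 from full to BEC, -0.12 to 0.20 for Ajuba from intermediate to BEC, and -0.69 to 0.049 for the step difference of Nuak2.

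Total-count scaling raised the share of calls at the first step that were higher from 52.8% to 85.6%. In comparisons with at least 1 same-numbered pair under a correlation of 0.1, the replicate block called Nuak2 from early to full (edgeR adjusted p = 0.00573) and Ccn1 from early to BEC (edgeR adjusted p = 0.000323). The correlations of early and full were 0.0960 to 0.209. The block ended no member's call in any comparison. Single early libraries held 13 to 123 counts of Axl, Ankrd1, Ccn2 and Ptpn14; how far depth limits their comparisons was not tested.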
